A study of Mus musculus with 11 samples.

Results

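Expression in the mouse colon 12 h after an injection of imatinib was set against expression 3 h after the injection. The comparison rests on the samples whose titles give 12 h (n = 4) or 3 h (n = 4), which are 8 of the 11 samples of the series, and the other 3 are controls taken before imatinib. All 11 are total RNA from the colon of adult C57BL/6 mice, hybridised to an expression array, and no dose is given in the labels. Imatinib is a tyrosine kinase inhibitor of Kit, the PDGF receptors and the Abl family, and the series title links these arrays to Eph receptor and Abl signalling in intestinal tumours. Replicates carry numbers in the labels, but nothing there ties a number to a separate animal, so every p-value reflects variation among these arrays, which may be technical. Controls injected with vehicle or killed at the same hours were not analysed here, so time since injection and hour of the day cannot be told apart. The samples are whole colon, in which fewer cells of a type and less RNA per cell cannot be told apart either.

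Several programmes in the gut wall change over the hours of a day. The circadian clock is a loop in which Bmal1 (Arntl) and its partners Clock or Npas2 switch on the Per, Cry and PAR bZIP genes through E-box sequences, and Per and Cry proteins then repress them. Glucocorticoids, cAMP and amino acid shortage each induce a set of genes within a few hours that usually falls again when the stimulus ends. The mucosa rests on fibroblasts and smooth muscle that make collagen and elastic fibres, and hedgehog and BMP signals pass between this layer and the epithelium.

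Of 18193 genes, 362 were higher and 379 lower at 12 h than at 3 h (limma, Benjamini-Hochberg adjusted p under 0.05), together 4.07% of the genes tested. The difference was at least 2-fold for 21 of the rises and 80 of the falls. The arrays of the 2 times did not overlap for 354 of the rises and 370 of the falls. Over all genes 6.3% had all 12 h arrays above, 5.26% had all below and 11.6% had no overlap in either direction. Calls and overlap rest on the same values, so a lack of overlap in a called gene is a description and not separate evidence. The largest rises and falls named below were picked without overlap. The median log2 difference over all genes was 0.01. Signals are on the arrays' own scale, and log2 differences are of signal + 16, which shrinks the change of dim genes.

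Each gene was then placed by its calls against control, which share arrays with the comparison of 12 h and 3 h, so the classes describe the genes and are not independent findings. A change was named reverted where a gene was called at 3 h, called back in the opposite direction between 3 h and 12 h, and not called against control at 12 h. Over all genes 2.54% were called at 3 h against control and 1.63% at 12 h against control. The reverted class held 190 genes, of which 117 had been higher and 73 lower than control at 3 h. The bounds of the 95% intervals of their 12 h difference from control reached -1.24 and 1.28. For some of them a remaining change of over 2-fold was within the interval, so the class does not show a full return to control. A change was named late where a gene was not called at 3 h but was called at 12 h against both control and 3 h, which held for 97 genes, 35 higher and 62 lower. A change was named persisted where a gene was called in the same direction at both times and not between them. This held for 81 genes, 47 higher and 34 lower, and the median width of the 95% interval of their 12 h to 3 h difference was 0.57. The bounds of these intervals reached -1.14 and 1.19, so for some of these genes a return of over 2-fold was within the interval, and the class does not show that levels were equal. The reverted genes were 41.1% and the persisted genes 17.5% of the genes called at 3 h against control. A further 445 genes, 60.1% of those that differed between 12 h and 3 h, were called against control at neither time. For 419 of these the control mean lay between the means of the 2 imatinib groups.

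**Figure D1:**
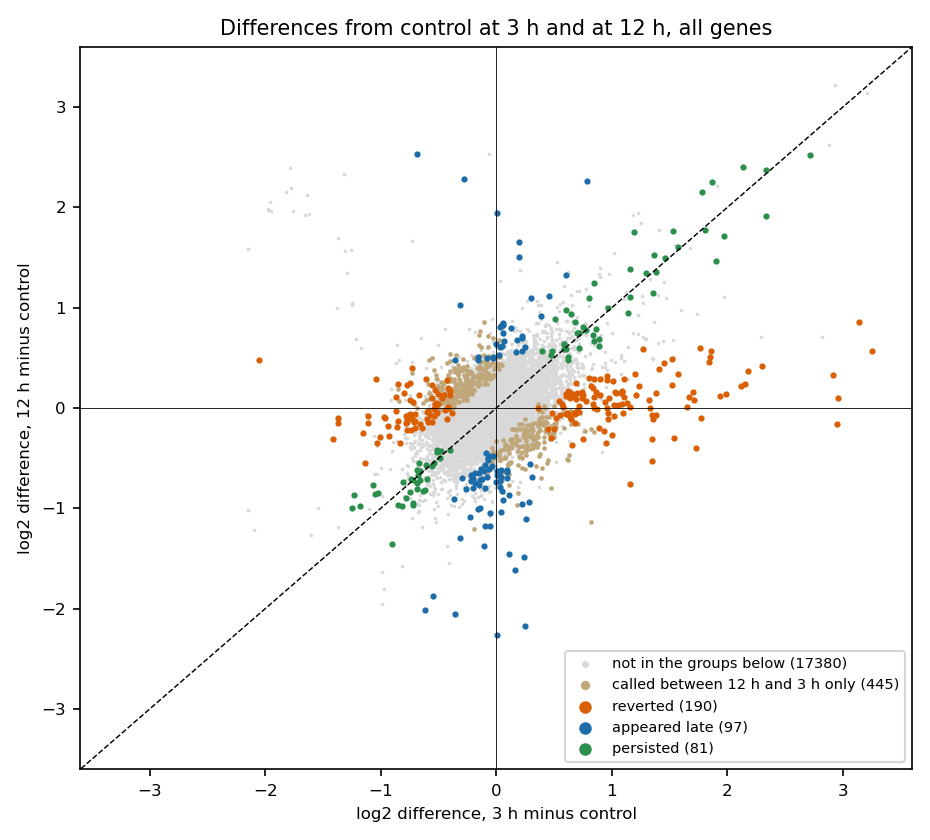
Each point is 1 of 18193 genes, placed by its log2 difference from control at 3 h (horizontal) and at 12 h (vertical), with colours for the classes of genes. Points on the dashed line had equal levels at both times. Classes rest on calls and not on distance from a line. For the 190 reverted genes the median absolute log2 difference from control at 12 h was 0.14. For the 97 late genes that at 3 h was 0.13, and for the 81 persisted genes that between the times was 0.11. Single genes lie further off, such as Trpv6 (reverted, -0.76 at 12 h) and Tspan4 (late, 0.79 at 3 h).

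Some arrays stood apart before any gene was considered. Markers of colon epithelium were high on every array, with a mean log2 level of 11 genes between 11.43 and 11.73. The mean log2 level of 18 pancreatic acinar markers was above 10 on control replicate 1, 3 h replicate 3 and 12 h replicates 1, 3 and 4, and at most 7.51 on the other 6 arrays. Mesenteric fat markers had a mean log2 level of 7.02 to 7.21 at 3 h, 7.10 and 7.17 on 12 h replicates 3 and 4, 6.69 and 6.60 on replicates 1 and 2, and 6.55 to 6.66 in control. The control transcripts dap, lys, phe and thr, each as the mean of part of its probe sets, were higher on every 12 h array than on any other array. The log2 differences of these means between 12 h and 3 h, without the offset, were 0.52 to 0.61. For bioB, bioC, bioD and cre they were 0.03 to 0.07. Counts with the pancreatic or the fat markers as a covariate are given in the last section, and the part of these differences in the results was not tested. Without the 5 arrays high in pancreatic markers, which leaves 1 array at 12 h whose spread is taken from the other groups, 4 genes rose and 12 fell, and 15 of the 741 genes were called in the same direction.

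**Figure D2:**
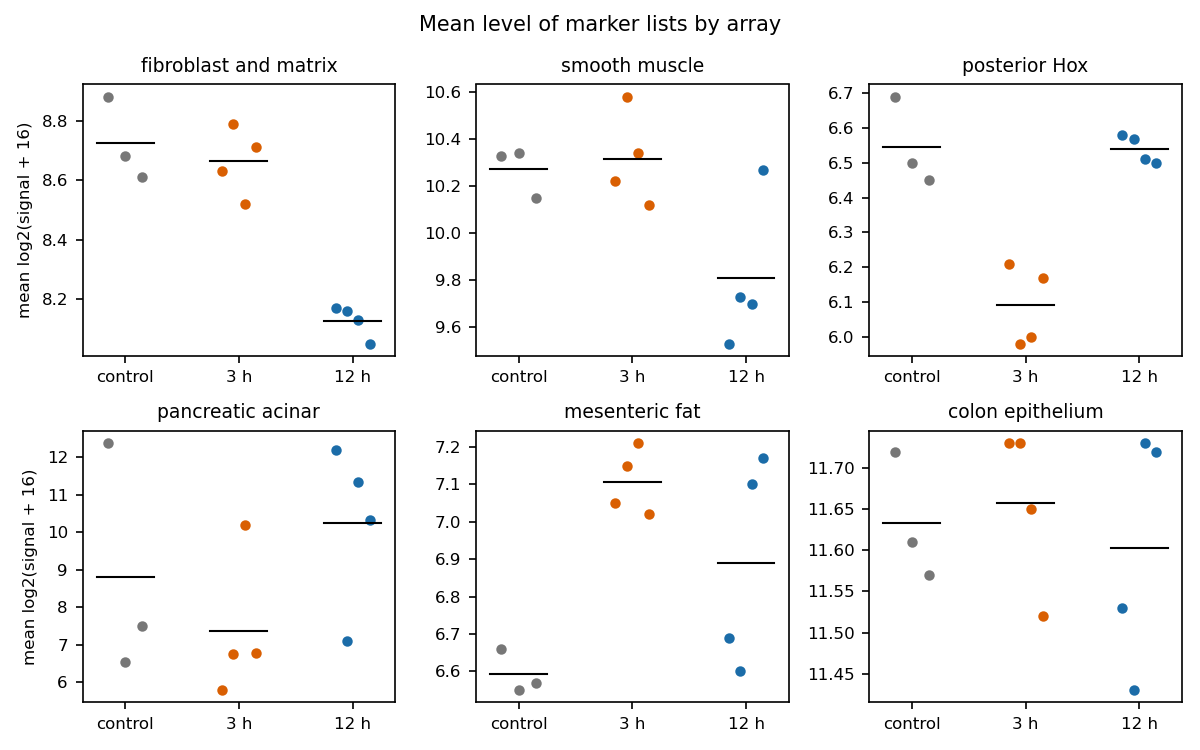
Mean log2(signal + 16) of 6 lists of marker genes on each array (points; lines are group means) in control (n = 3), at 3 h (n = 4) and at 12 h (n = 4). Fibroblast and matrix genes ranged from 8.05 to 8.17 at 12 h and from 8.52 to 8.79 at 3 h, with no overlap, posterior Hox genes were lower on every 3 h array, and pancreatic acinar markers were high on 5 arrays spread over all groups.

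The genes of the circadian clock that peak together with Per and Dbp were higher at 12 h. Of 12 measured, 6 rose and none fell (Dbp, Per2, Tef, Ciart, Cry2 and Bhlhe40), 50% against 4.07% of all genes, and the list had a median log2 difference of 0.74. At 3 h the list had a median of -0.03 against control, so the rise came between 3 h and 12 h. Of 6 genes that peak with Bmal1, the activators Arntl and Npas2 and the repressor Nfil3 were lower at 12 h, and Cry1 was higher.

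Promoter sequences from RefSeq (GRCm38.p6; 250 bases before to 50 after the start site) were listed for 4 of the 6 clock genes that rose, Dbp, Tef, Ciart and Cry2. Those of Tef and Ciart hold the E-box CACGTG, which 7.15% of 32851 promoters hold, and that of Cry2 holds the variant CACGTT, which 4.68% hold. Nfil3, which fell from a high level at 3 h, has the ROR and REV-ERB core TAGGTCA, which 2.61% hold and which was also found in Arntl. Both strands were searched, the matches in Cry2 and Nfil3 are on the strand opposite to the printed one, and a match is only a description of these letters. The D-box TTATGTAA was found in none of the promoters of these clock genes. For the other groups searched, the cAMP response element TGACGTCA (1.79% of all promoters) was found in none of 6 cAMP-responsive genes that fell, the sterol core TCACCCCA (1.56%) in none of 4 cholesterol genes that rose, and the heat shock element (0.603%) in 1 of 4 heat shock genes that rose, Chordc1. The stretches show the matches in Ciart, Tef and Cry2, which rose, and in Nfil3, which fell, each 5′ to 3′ along its gene with the match in capitals.
Ciart, chr3:95882246-95882365, minus strand: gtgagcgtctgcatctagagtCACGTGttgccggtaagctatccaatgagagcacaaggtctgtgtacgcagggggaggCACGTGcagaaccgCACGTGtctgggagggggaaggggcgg
Tef, chr15:81802489-81802608, plus strand: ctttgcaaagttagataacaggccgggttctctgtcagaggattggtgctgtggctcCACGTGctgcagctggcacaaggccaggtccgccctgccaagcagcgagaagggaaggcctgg
Cry2, chr2:92434173-92434292, minus strand: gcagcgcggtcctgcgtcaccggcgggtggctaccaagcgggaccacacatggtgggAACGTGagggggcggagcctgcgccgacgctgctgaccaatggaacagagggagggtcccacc
Nfil3, chr13:52981040-52981159, minus strand: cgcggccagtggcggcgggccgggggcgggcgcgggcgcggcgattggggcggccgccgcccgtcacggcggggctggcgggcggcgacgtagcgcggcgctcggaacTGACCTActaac

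Dbp, a PAR bZIP activator of clock output, had signals of 28.2, 46.1, 41.4 and 38.6 at 3 h and of 329.3, 646.6, 503.9 and 529.5 at 12 h, with 83.2, 55.5 and 78.5 in control. Every 12 h array lay above every other array, and the log2 difference between 12 h and 3 h was 3.22 ± 0.19 (SE; limma adjusted p = 5.49e-06). Per2, a repressor of the loop, had signals of 16, 14.5, 19.2 and 16.6 at 3 h and of 143.5, 217.7, 162.7 and 183.5 at 12 h, with 22.2, 23.6 and 24.4 in control. The groups did not overlap, and its difference of 2.55 ± 0.11 (SE; limma adjusted p = 7.46e-07) was also seen on 2 dimmer probe sets, at 1.43 and 0.80. Tef, a second PAR bZIP factor, went from 105.1, 128.5, 134.1 and 116.0 at 3 h, close to control at 104.7 to 140.9, to 439.1, 492.4, 520.2 and 570.7 at 12 h (log2 difference 1.93 ± 0.12 SE; limma adjusted p = 5.92e-06). Ciart, a repressor of Bmal1 and Clock, went from 22.1 to 38.8 over the 3 h arrays to 86.5 to 95.1 over the 12 h arrays (1.31 ± 0.12 SE; limma adjusted p = 0.000104). Cry2, the partner of Per proteins, went from 62.8 to 70.4 at 3 h to 119.0, 116.1, 114.8 and 165.2 at 12 h (0.78 ± 0.12 SE; limma adjusted p = 0.00302). These 5 genes were in the late class. The rise of Bhlhe40 (0.68 ± 0.16 SE; limma adjusted p = 0.0334) was lost when any of 7 arrays was left out (adjusted p up to 0.0937). Per1 was already called at 3 h against control (log2 difference 0.80) and stayed there at 12 h (1.10 against control, 0.30 against 3 h, limma adjusted p = 0.117), the persisted member of the list.

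In the opposite phase, Npas2 had signals of 163.7, 154.7, 121.0 and 127.5 at 3 h and of 30.2, 30.5, 24.4 and 48.8 at 12 h, with 177.9 to 198.5 in control. All 12 h arrays lay below all others (-1.69 ± 0.14 SE; limma adjusted p = 5.17e-05). Arntl went from 134.4 to 163.8 at 3 h to 77.9, 56.7, 59.1 and 67.7 at 12 h (-0.98 ± 0.11 SE; limma adjusted p = 0.000362), and a dimmer probe set had a difference of -0.25. Nfil3, which represses the genes that Dbp activates, behaved differently from both. Its signals were 8.1, 35.8 and 43.3 in control, 341.4, 291.7, 335.2 and 271.3 at 3 h, and 37.6, 17.0, 35.6 and 5.9 at 12 h. The level at 12 h overlapped control, and the fall from 3 h was -3.11 ± 0.31 (SE; limma adjusted p = 0.000186), in the reverted class. Cry1 (0.88 ± 0.18 SE; limma adjusted p = 0.0218) was higher at 12 h, a call lost without any of 4 arrays (adjusted p up to 0.0674). Without the 5 arrays high in pancreatic markers 3 of the Per and Dbp genes still rose and 2 of the Bmal1 genes still fell, with medians of 0.68 and -0.74.

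**Figure D3:**
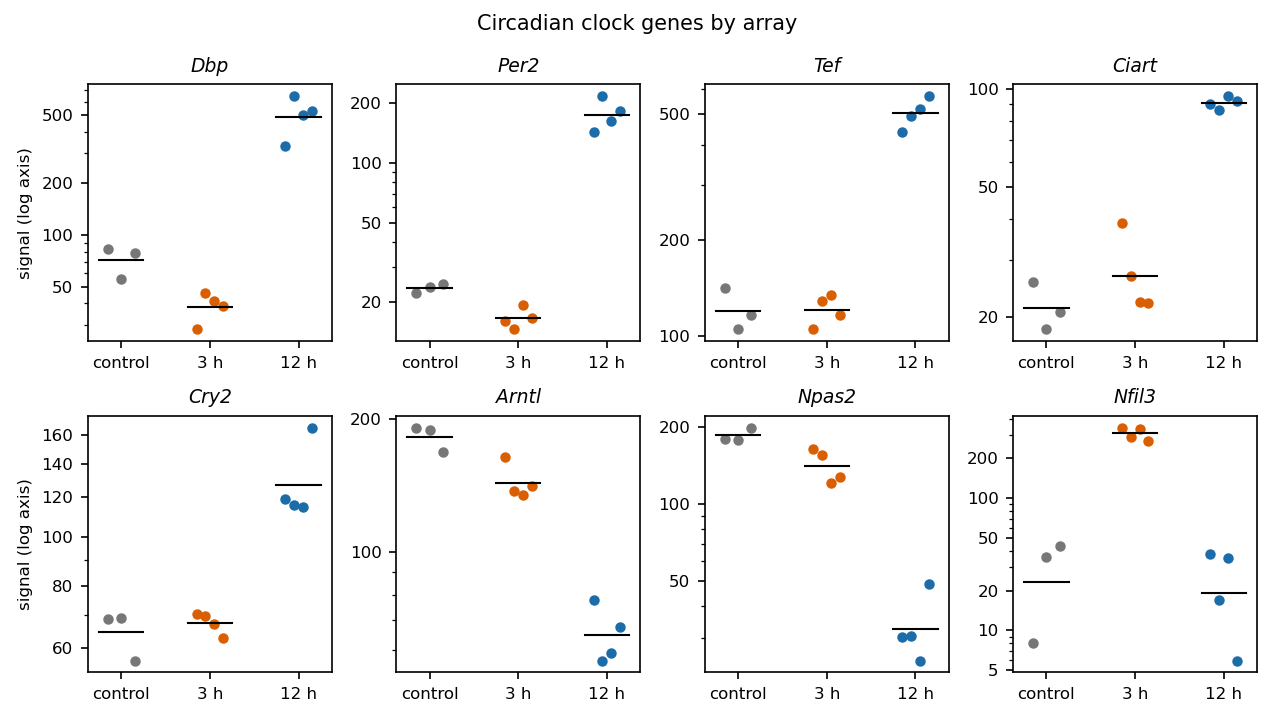
Signal on each array (points, logarithmic axis; lines are geometric means) of 8 circadian clock genes in control (n = 3), at 3 h (n = 4) and at 12 h (n = 4). Dbp, Per2, Tef, Ciart and Cry2 were high at 12 h alone, Arntl and Npas2 were low at 12 h, and Nfil3 was high at 3 h alone.

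Genes that glucocorticoids induce were high at 3 h and had fallen by 12 h. Of 20 measured, 11 fell and none rose between 3 h and 12 h (Tsc22d3, Zbtb16, Errfi1, Klf9, Dusp1, Mt1, Mt2, Cebpb, Cebpd, Map3k6 and Ddit4), 55% against 4.07%, and all 11 were in the reverted class. The medians of the list were 1.03 at 3 h against control, -0.80 between 12 h and 3 h, and 0.17 at 12 h against control. Cebpd, a bZIP factor of the acute phase, had signals of 299.8, 348.2 and 521.8 in control, 1574.9, 2100.2, 2053.4 and 1451.8 at 3 h, and 815.5, 509.2, 510.7 and 284.1 at 12 h. Its 12 h arrays lay below every 3 h array and overlapped control (-1.80 ± 0.27 SE; limma adjusted p = 0.00315). Zbtb16, a zinc finger factor, went from 282.9, 333.0, 304.2 and 300.0 at 3 h to 93.8, 83.3, 139.1 and 158.9 at 12 h (-1.29 ± 0.17 SE; limma adjusted p = 0.00182). Errfi1, a feedback inhibitor of the EGF receptor, went from 1122.3 to 1495.9 at 3 h to 434.2, 468.0, 591.8 and 800.5 at 12 h (-1.23 ± 0.17 SE; limma adjusted p = 0.00211). Cebpb fell by 1.38 ± 0.17 and Dusp1, a MAP kinase phosphatase, fell by 1.30 ± 0.19 (SE; limma adjusted p = 0.000927 and 0.00293). The list was not uniform, because Fkbp5 and Sgk1 stayed high. Fkbp5, a co-chaperone of the glucocorticoid receptor, differed by -0.21 between the times (limma adjusted p = 0.306) and was still 1.15 above control at 12 h. The receptor gene itself, Nr3c1, chosen after its values were seen, had signals of 315.3, 336.1, 356.0 and 362.4 at 3 h and 518.6, 497.8, 688.0 and 505.7 at 12 h, with 426.4 to 439.7 in control. It was higher at 12 h by 0.65 ± 0.11 (SE; limma adjusted p = 0.00647), and its 5 dimmer probe sets differed by 0.07 to 0.56. Without the 5 arrays high in pancreatic markers the median of the list was -0.78, and 1 member was called.

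The metallothioneins, which bind zinc and are induced by metal and by glucocorticoids, reverted together. Mt2 had signals of 944.8, 647.4 and 500.1 in control, 3187.4, 3546.7, 3975.0 and 2927.3 at 3 h, and 1170.1, 1020.8, 1233.3 and 456.3 at 12 h. No 12 h array reached a 3 h array (-1.88 ± 0.28 SE; limma adjusted p = 0.00327). Mt1 went from 4695.6, 5235.8, 5572.0 and 3946.7 at 3 h to 2650.1, 2189.9, 2949.8 and 1800.2 at 12 h (-1.03 ± 0.21 SE; limma adjusted p = 0.0171). That call was lost without 3 h replicate 2 (0.0524) or 3 (0.0531) and without 12 h replicate 2 (0.0533). The zinc exporter gene Slc30a1 did not follow them, with signals of 227.6 to 286.2 in control, 361.0 to 421.6 at 3 h and 401.2 to 629.1 at 12 h, and was in the persisted class. Of 12 metallothionein and zinc transporter genes Mt1 and Mt2 were the only ones called between 12 h and 3 h (16.7%, against 4.07% of all genes). Both promoters hold the core of the metal response element, TGCGCNC or TGCACNC on either strand, as do 25.7% of all promoters and 5 of 6 cAMP-responsive genes that fell, and the stretches are shown for the pair that moved together (RefSeq, GRCm38.p6, match in capitals).
Mt1, chr8:94178889-94179088, plus strand: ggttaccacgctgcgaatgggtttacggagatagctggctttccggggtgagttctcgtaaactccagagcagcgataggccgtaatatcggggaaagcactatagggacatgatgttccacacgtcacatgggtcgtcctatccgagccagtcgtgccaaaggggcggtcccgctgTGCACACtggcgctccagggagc
Mt2, chr8:94172385-94172584, plus strand: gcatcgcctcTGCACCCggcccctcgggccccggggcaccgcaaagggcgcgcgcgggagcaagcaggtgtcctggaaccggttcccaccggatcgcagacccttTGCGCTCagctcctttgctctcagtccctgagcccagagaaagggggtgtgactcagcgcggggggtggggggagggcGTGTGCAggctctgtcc

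Genes that respond to cAMP and CREB, secreted proteases of the ADAMTS family and acute cytokines included 6 of the 10 largest falls (Adamts4, Ptx3, Gem, Kcne4, Adamts9 and Adamts1). Of 13 cAMP-responsive genes 8 fell and none rose (61.5%, median log2 difference -0.72). Of 17 secreted proteases and inhibitors 4 fell (Adamts1, Adamts4, Adamts9 and Plat; 23.5%, median -0.18). Of 19 cytokine genes 3 fell (Ptx3, Il6 and Il1r1; 15.8%, median -0.17). No member of these 2 lists rose, and 4.07% of all genes were called in either direction. Gem, a small GTPase that restrains calcium channels, had signals of 26.8, 34.6 and 38.8 in control, 333.0, 452.6, 370.1 and 286.1 at 3 h, and 89.6, 60.9, 32.5 and 21.3 at 12 h. The 12 h arrays lay below all 3 h arrays (-2.59 ± 0.27 SE; limma adjusted p = 0.000296). Kcne4, a potassium channel subunit, went from 530.6, 808.8, 648.7 and 487.1 at 3 h to 127.1, 104.4, 137.2 and 84.6 at 12 h (-2.29 ± 0.18 SE; limma adjusted p = 2.76e-05), and each 12 h value was still above the control values of 44.0 to 69.6. The phosphodiesterase Pde4b, which breaks down cAMP, went from 202.6 to 287.7 at 3 h to 58.9 to 76.1 at 12 h (-1.56 ± 0.12 SE; limma adjusted p = 2.7e-05). The orphan receptors Nr4a2 and Nr4a3 fell by 1.15 ± 0.10 and 1.42 ± 0.20 (SE; limma adjusted p = 8.94e-05 and 0.0025), while dimmer probe sets of Nr4a2 differed by -1.19 to 0.04.

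Adamts4, which cleaves matrix proteoglycans, had signals of 15.2, 13.8 and 22.7 in control, 254.9, 356.0, 234.9 and 158.5 at 3 h, and 32.9, 14.7, 24.5 and 9.5 at 12 h. The 12 h arrays overlapped control and not 3 h (-2.87 ± 0.24 SE; limma adjusted p = 3.43e-05). Adamts9 went from 162.8, 263.6, 170.4 and 167.7 to 26.5, 24.9, 37.0 and 34.4 (-2.13 ± 0.16 SE; limma adjusted p = 2.02e-05), with dimmer probe sets at -1.58 and -0.02. Adamts1 came back only in part, from 368.1, 357.8, 333.1 and 264.5 at 3 h to 72.6, 54.6, 77.0 and 52.5 at 12 h, against 36.1, 32.8 and 29.4 in control. The fall was -2.12 ± 0.13 (SE; limma adjusted p = 7.17e-06), and the remaining difference from control was 0.71 (limma adjusted p = 0.0337). Of 18193 genes 4 were called in this way at both times with a partial return, and the others were Ugt8a, Adamtsl2 and the activin antagonist Fst. This group rests on the call against control at 12 h and not on the size of the remaining difference. Kcne4 was not in it, with a larger remaining difference of 0.86. The secreted pattern recognition protein Ptx3 went from 192.1, 214.2, 268.7 and 193.0 at 3 h to 34.8, 16.1, 24.0 and 10.1 at 12 h (-2.68 ± 0.19 SE; limma adjusted p = 1.57e-05), and its dimmer probe set, near the floor, differed by 0.03. Il6 had signals of 0.4 to 0.7 in control, 29.6 to 34.7 at 3 h and 0.2 to 10 at 12 h (-1.29 ± 0.13 SE; limma adjusted p = 0.000201). Among the other large falls were Sphk1, which makes sphingosine 1-phosphate (-1.90 ± 0.14 SE), the glycolytic regulator Pfkfb3 (-1.87 ± 0.15 SE), the steroid sulfate transporter Slc10a6 (-1.90 ± 0.13 SE) and the ubiquitin ligase Rnf122 (-1.88 ± 0.15 SE). Their limma adjusted p lay between 1.57e-05 and 3.07e-05.

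**Figure D4:**
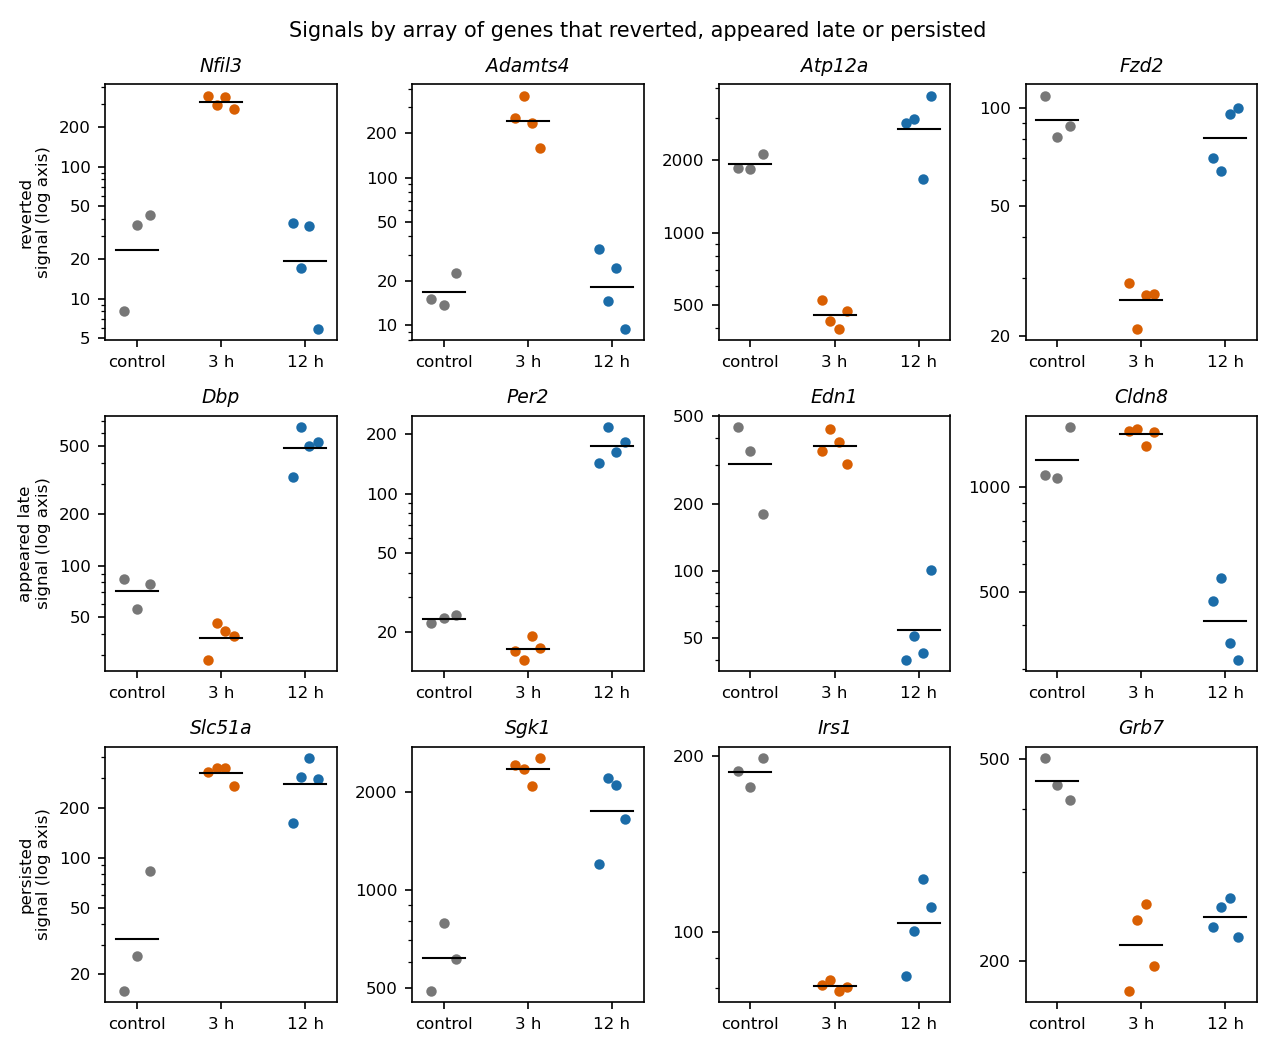
Signal on each array (points, logarithmic axis; lines are geometric means) in control (n = 3), at 3 h (n = 4) and at 12 h (n = 4) for 4 genes each of the reverted, late and persisted classes. Nfil3 and Adamts4 were high and Atp12a and Fzd2 low at 3 h alone; Dbp and Per2 were high and Edn1 and Cldn8 low at 12 h alone; Slc51a, Sgk1, Irs1 and Grb7 kept their difference from control at both times.

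Immediate early genes, which growth signals switch on quickly, went both ways. Of 24 measured, Fos and Jund rose and Fosl2, Ier5, Btg2, Klf2, Maff and Myc fell (33.3% called, median -0.11). Myc had signals of 93.4, 99.5 and 104.1 in control, 202.1, 169.6, 169.3 and 260.6 at 3 h, and 113.9, 77.8, 84.4 and 65.8 at 12 h. It returned to the range around control (-1.09 ± 0.16 SE; limma adjusted p = 0.00265). Fos was low at 3 h, at 872.0 to 1007.6 against 1662.2 to 1817.4 in control, and reached 1469.5, 1152.1, 1488.9 and 2019.0 at 12 h (0.67 ± 0.14 SE; limma adjusted p = 0.0229). That call was lost without 3 h replicates 1, 3 or 4 or 12 h replicate 3 (adjusted p up to 0.067). The rise of Jund (0.51 ± 0.12 SE; limma adjusted p = 0.0314) was lost without any of 5 arrays (up to 0.0914). Among G1 regulators the inhibitor gene Cdkn1a was lower at 12 h (-0.52 ± 0.11 SE; limma adjusted p = 0.022; lost without any of 4 arrays, up to 0.0704). Cdkn1b, a related inhibitor gene, had 361.7 to 423.4 in control, 186.4 to 264.0 at 3 h and 201.5 to 279.1 at 12 h, and was in the persisted class.

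The amino acid response driven by the factor ATF4 also came down. Of 27 genes of that response and of the unfolded protein response 6 fell and none rose (Chac1, Mthfd2, Slc3a2, Slc7a5, Atf4 and Ddit4; 22.2%, median -0.11), and all 6 were in the reverted class. Chac1, which degrades glutathione, had signals of 41.1, 27.7 and 28.6 in control, 414.7, 166.0, 109.2 and 102.6 at 3 h, and 50.4, 22.4, 33.9 and 43.4 at 12 h. The groups did not overlap despite the spread at 3 h (-1.82 ± 0.34 SE; limma adjusted p = 0.012). Mthfd2, a mitochondrial folate enzyme, went from 319.1, 175.2, 171.9 and 161.8 to 86.3, 56.4, 69.1 and 69.3 (-1.33 ± 0.20 SE; limma adjusted p = 0.00376). The calls of Atf4 (-0.53 ± 0.12 SE; limma adjusted p = 0.0311), Slc3a2 and Slc7a5 were lost when any of 5, 3 and 2 arrays was left out, and dimmer probe sets of Atf4 differed by -0.04 and 0.10. For Slc7a5 these were 12 h replicates 2 and 3 (adjusted p up to 0.0569), and for Slc3a2 3 h replicates 1 and 2 and 12 h replicate 2 (up to 0.0628). Outside the list and chosen after their values were seen, the amino acid transporter genes Slc7a1 (-1.08 ± 0.16 SE) and Slc1a4 (-1.26 ± 0.15 SE) fell too (limma adjusted p = 0.00307 and 0.000892). With the pancreatic markers as a covariate 1 of the 27 genes was called, with a median of -0.07.

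Cirbp fell between 3 h and 12 h while several heat shock genes rose. Cirbp, an RNA-binding protein induced by mild cold, was chosen after its values were seen. It had signals of 64.1, 89.7 and 74.3 in control, 227.8, 155.6, 238.0 and 268.1 at 3 h, and 58.7, 87.9, 64.8 and 65.2 at 12 h. All 3 h arrays lay above all others (-1.47 ± 0.16 SE; limma adjusted p = 0.000398). Of 18 heat shock proteins and co-chaperones Dnaja1, Dnajb1, Chordc1 and Ahsa1 rose and Hspb8 fell (27.8% called, median 0.32). Chordc1, a co-chaperone of Hsp90, had 275.0, 304.4 and 393.4 in control, 189.2, 218.7, 170.4 and 172.9 at 3 h, and 462.7, 385.3, 419.4 and 451.6 at 12 h. It was low at 3 h and higher again at 12 h (1.13 ± 0.12 SE; limma adjusted p = 0.000384). Dnaja1, a co-chaperone of Hsp70, went from 721.4 to 808.6 at 3 h to 1385.8 to 1562.1 at 12 h (0.93 ± 0.12 SE; limma adjusted p = 0.00133), and its dimmer probe sets differed by 0.46 and 0.37. The call of Ahsa1 (0.50 ± 0.12 SE) was lost when any of 8 arrays was left out (limma adjusted p up to 0.111), and its dimmer probe set differed by -0.05.

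Bmp4, Id4, Ptch1 and Ihh were low at 3 h and higher again at 12 h. Of 23 hedgehog, BMP and ID genes 4 rose (Ihh, Ptch1, Bmp4 and Id4) and Id2 fell, 21.7% against 4.07%, with a median of 0.11, and all 5 were in the reverted class. Bmp4, a ligand made by stromal cells under the crypts, had signals of 171.8, 129.9 and 123.4 in control, 57.7, 55.7, 61.5 and 51.5 at 3 h, and 111.2, 123.1, 143.9 and 123.0 at 12 h. Every 3 h array was below every other array (0.96 ± 0.11 SE; limma adjusted p = 0.000697). Id4, an inhibitor of bHLH factors, went from 156.6 to 197.1 at 3 h to 312.9, 416.6, 390.2 and 527.4 at 12 h (1.10 ± 0.14 SE; limma adjusted p = 0.0014). Ptch1, the hedgehog receptor and a target of the pathway, went from 149.5 to 183.3 to 277.5 to 376.7 (0.86 ± 0.12 SE; limma adjusted p = 0.00171), with dimmer probe sets at -0.22 and 0.43. Ihh, the epithelial ligand, rose from 96.8 to 119.1 at 3 h to 141.2, 221.0, 193.0 and 225.8 at 12 h (0.72 ± 0.15 SE; limma adjusted p = 0.0213). That call was lost without 3 h replicate 2 (0.0657) or 4 (0.0536) and without 12 h replicate 2 (0.0663).

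The Wnt receptor gene Fzd2 had signals of 108.5, 81.5 and 87.9 in control, 29.0, 21.0, 26.6 and 26.8 at 3 h, and 70.2, 64, 95.4 and 99.7 at 12 h. The 3 h arrays stood apart from both other groups (1.22 ± 0.14 SE; limma adjusted p = 0.000436). The mesenchymal factor Tcf21 came back from 205.4 to 284.4 to 463.1 to 554.1 (1.03 ± 0.11 SE; limma adjusted p = 0.000384), with a dimmer probe set at 0.20. Of the forkhead factors of the gut mesenchyme, both chosen after their values were seen, Foxf2 rose by 0.57 ± 0.09 and Foxf1 fell by 0.60 ± 0.12 between 3 h and 12 h (SE; limma adjusted p = 0.00619 and 0.0157). Gucy1a1, a subunit of the nitric oxide receptor chosen in the same way, went from 52.9 to 81.3 at 3 h to 99.3 to 161.9 at 12 h (0.84 ± 0.14 SE; limma adjusted p = 0.00653), with dimmer probe sets at 0.19 and 0.45. Cx3cr1, the fractalkine receptor of colonic macrophages, had 54.4 to 57.3 in control, 23.6, 6.7, 7.2 and 12.9 at 3 h, and 65.3, 44.2, 48.5 and 46.9 at 12 h (1.26 ± 0.17 SE; limma adjusted p = 0.00146). It was the only one of 19 macrophage and dendritic cell markers called between the times (5.26%), and the median of that list was 0.01.

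Posterior Hox genes, which mark the distal end of the gut, were lower at 3 h than at either other time. Of 10 measured, Hoxa13, Hoxb13, Hoxd10 and Hoxd13 rose between 3 h and 12 h (40%, median 0.35), and all 4 were in the reverted class. Hoxb13 had signals of 1343.1, 987.7 and 1213.9 in control, 732.4, 541.7, 443.6 and 694.3 at 3 h, and 1010.0, 1191.7, 979.4 and 1234.3 at 12 h. The 3 h arrays lay below the rest (0.88 ± 0.16 SE; limma adjusted p = 0.0111). The calls of Hoxd13 (0.90 ± 0.20 SE; limma adjusted p = 0.0266) and Hoxa13 (0.65 ± 0.14 SE; limma adjusted p = 0.0241) were each lost when any of 5 arrays was left out (up to 0.0716 for both). Of 14 anterior Hox and proximal colon genes, only Hoxc4 was called (7.14%, against 4.07% of all genes). It rose by 0.59 ± 0.15 (SE; limma adjusted p = 0.0445), a call lost when any of 9 arrays was left out (up to 0.117). Averaged over its members, the posterior list lay at log2 levels of 5.98 to 6.21 at 3 h and 6.50 to 6.58 at 12 h, so this list and the times cannot be told apart on these arrays. With that level as a covariate 1 gene was called between 12 h and 3 h in all, while 724 of the 741 genes kept their direction.

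Transport genes of the surface epithelium changed in several patterns. Of 19 sodium and potassium transport genes Atp12a, Prss8 and Kcnq1 rose and Nedd4l fell (21.1%, median 0.15). Atp12a, the colonic proton and potassium pump, had signals of 1853.4, 1835.8 and 2114.3 in control, 523.3, 428.7, 397.8 and 472.0 at 3 h, and 2855.5, 2964.2, 1669.3 and 3699.1 at 12 h. It was the largest reverted fall, and 3 of 4 arrays at 12 h lay above every control array (2.53 ± 0.20 SE; limma adjusted p = 2.7e-05). Prss8, a protease that activates the epithelial sodium channel, went from 121.1 to 149.4 at 3 h to 180.1 to 225.1 at 12 h (0.56 ± 0.10 SE; limma adjusted p = 0.0113). Nedd4l, the ubiquitin ligase that removes that channel, went from 734.6 to 931.3 to 438.2 to 608.8 (-0.70 ± 0.13 SE; limma adjusted p = 0.00987), and its 5 dimmer probe sets differed by -0.92 to -0.15. The potassium channel gene Kcnq1 rose late (0.50 ± 0.11 SE; limma adjusted p = 0.0251), a call lost when any of 5 arrays was left out (up to 0.0762).

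Of 14 calcium, magnesium and phosphate transport genes Trpv6, Trpm6 and Slc34a2 fell and none rose (21.4%, median -0.19). Trpv6, the apical calcium channel, had signals of 85.0, 53.7 and 64.7 in control, 193.3, 176.6, 200.6 and 117.6 at 3 h, and 52.9, 22.7, 37.0 and 24.8 at 12 h. It reverted, and every 12 h array was below every control array (-1.92 ± 0.21 SE; limma adjusted p = 0.000362), a difference from control that did not pass the test (-0.76, limma adjusted p = 0.116). Slc34a2, a sodium phosphate cotransporter, had 189.9 to 291.0 in control, 118.0, 184.9, 145.0 and 148.5 at 3 h and 37.3, 35.6, 52.2 and 66.0 at 12 h (-1.38 ± 0.18 SE; limma adjusted p = 0.00133). The magnesium channel gene Trpm6 had 1101.2 to 1116.2 in control, 830.0, 807.7, 646.5 and 728.6 at 3 h and 165.1, 303.6, 258.6 and 536.2 at 12 h (-1.32 ± 0.25 SE; limma adjusted p = 0.0131). Both were late falls. Their 3 h differences from control, -0.62 and -0.55, were downward and did not pass the test.

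Of 16 tight junction genes Cldn8 fell and Cldn15 rose (12.5% called, against 4.07% of all genes). Cldn8, a sealing claudin of the distal colon, had signals of 1083.5, 1059.3 and 1482.3 in control, 1448.4, 1464.8, 1308.4 and 1433.5 at 3 h, and 470.1, 545.9, 356.1 and 318.9 at 12 h. The 12 h arrays lay far below all others (-1.73 ± 0.16 SE; limma adjusted p = 0.000122). Cldn15, a claudin that forms sodium pores, went from 266.9 to 318.7 at 3 h to 424.7 to 483.2 at 12 h (0.57 ± 0.09 SE; limma adjusted p = 0.00337). Endothelin 1 (Edn1), a peptide that constricts vessels, had 445.7, 347.5 and 182.0 in control, 348.4, 436.6, 381.7 and 305.3 at 3 h, and 40, 51.1, 42.9 and 101.4 at 12 h. It was among the late falls with no overlap between groups (-2.42 ± 0.27 SE; limma adjusted p = 0.000443). The other 14 vessel regulators measured were not called, so 6.67% of that list was called, against 4.07% of all genes. The ubiquitin ligase gene Rnf125 went from 290.8, 366.5, 377.6 and 313.8 to 96.2, 84.3, 90.8 and 78.7 (-1.77 ± 0.13 SE; limma adjusted p = 2.02e-05).

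Outside the clock, Tspan4 and Lefty1 were among the largest late rises. Lefty1, an inhibitor of Nodal signalling, had signals of 71.2, 67.4 and 74.1 in control, 44.7, 59.0, 58.3 and 55.2 at 3 h, and 137.0, 151.8, 176.3 and 182.9 at 12 h. All 12 h arrays lay above the rest (1.34 ± 0.11 SE; limma adjusted p = 3.26e-05). The tetraspanin gene Tspan4 had 22.4 to 41.5 in control, 67.2, 86.9, 73.6 and 47.8 at 3 h and 233.2, 221.0, 287.0 and 147.4 at 12 h (1.48 ± 0.20 SE; limma adjusted p = 0.00191). Its 3 h arrays already lay above every control array (0.79, limma adjusted p = 0.0844). The brush border myosin gene Myo1a was the only one of 24 absorptive colonocyte markers called (4.17%, median -0.05), from 1032.9 to 1281.6 at 3 h to 1803.8 to 2067.6 at 12 h (0.69 ± 0.10 SE; limma adjusted p = 0.00305). Of 19 cholesterol synthesis and uptake genes Idi1, Lss, Sc5d and Mvd rose and none fell (21.1%, median 0.34), and Idi1, Lss and Mvd were in the late class. Idi1, an isoprenoid enzyme, went from 577.3 to 706.1 at 3 h to 1273.4, 1435.6, 1094.3 and 850.2 at 12 h (0.79 ± 0.15 SE; limma adjusted p = 0.0127). The calls of Lss, Sc5d and Mvd were lost when any of 10, 6 and 3 arrays was left out (limma adjusted p up to 0.115, 0.0704 and 0.0592). For Mvd these were 3 h replicates 2 and 4 and 12 h replicate 2. Without 12 h replicate 4, 7 genes of the list rose, and with the pancreatic or the fat markers as a covariate 1 did.

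Genes of the extracellular matrix were lower at 12 h than at 3 h. Of 30 fibroblast and matrix genes 15 fell and none rose (50% against 4.07%), among them the collagens Col1a1, Col1a2, Col3a1, Col5a1, Col5a2 and Col6a1 to Col6a3. Of the 30, 13 were lower than control at 12 h, against 0.846% of all genes, and none was called against control at 3 h. The medians of the list were -0.07 at 3 h against control and -0.51 between 12 h and 3 h. Col6a3, a chain of the microfibrillar collagen, had signals of 518.4, 540.4 and 394.0 in control, 434.3, 468.6, 378.4 and 520.6 at 3 h, and 212.8, 195.6, 199.0 and 205.1 at 12 h. The 12 h arrays were tightly grouped below all others (-1.08 ± 0.12 SE; limma adjusted p = 0.000436). Elastin (Eln) had 196.8 to 257.2 in control, 234.5, 206.7, 166.9 and 220.6 at 3 h and 95.1, 78.6, 86.8 and 49.5 at 12 h (-1.27 ± 0.16 SE; limma adjusted p = 0.00136). Lox, the enzyme that crosslinks collagen and elastin, went from 78.9 to 103.3 at 3 h to 54.5, 41.6, 51.7 and 38.7 at 12 h (-0.73 ± 0.11 SE; limma adjusted p = 0.00316), with dimmer probe sets at -0.22 and -0.30. Col12a1 was called between the 2 times alone (-0.93 ± 0.16 SE; limma adjusted p = 0.00848), with dimmer probe sets from -0.18 to 0.13. Of basement membrane genes chosen after their values were seen, the laminin chain Lama3 went from 206.3 to 242.4 at 3 h to 90.9 to 108.3 at 12 h (-1.08 ± 0.12 SE; limma adjusted p = 0.000554), and Col15a1 from 53.4 to 74.5 to 21.4 to 34.1 (-0.86 ± 0.13 SE; limma adjusted p = 0.00294).

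Of 20 smooth muscle markers Actg2, Des and Ckb fell and none rose (15% against 4.07% of all genes). The median of the list was -0.54. An unadjusted limma p under 0.05 was found for 17 of the 20, against 26 of 30 matrix genes and 3231 of all 18193 genes. Actg2, the enteric actin, had signals of 4081.0, 5357.0, 4464.6 and 3786.7 at 3 h and 2180.3, 2442.9, 2262.5 and 3661.2 at 12 h, with 3428.7 to 4136.7 in control. 12 h replicate 4 lay near the other groups (-0.76 ± 0.17 SE; limma adjusted p = 0.0247). Des, the muscle intermediate filament, went from 1750.8, 2363.2, 1916.5 and 1483.9 to 860.2, 969.0, 815.3 and 1460.0 (-0.88 ± 0.19 SE; limma adjusted p = 0.0218), with the same array highest. The calls of Actg2, Des and Ckb were lost when any of 6, 6 and 9 arrays was left out (adjusted p up to 0.0732, 0.0636 and 0.105). Averaged over the 20 markers, the log2 level was 9.53, 9.73 and 9.70 on 12 h replicates 1 to 3 and 10.27 on replicate 4, against 10.12 to 10.58 at 3 h. Without 12 h replicate 4, 14 smooth muscle markers fell, and 10 matrix genes fell with a median of -0.51. The matrix level of that array, 8.05, was the lowest of all, unlike its smooth muscle level. Without the 5 arrays high in pancreatic markers no member of either list was called, with medians of -0.48 for matrix and -0.59 for smooth muscle, and the part of muscle content in the matrix result was not tested. With the pancreatic markers as a covariate 8 matrix genes fell (median -0.55), and with the fat markers 9 did (-0.53).

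**Figure D5:**
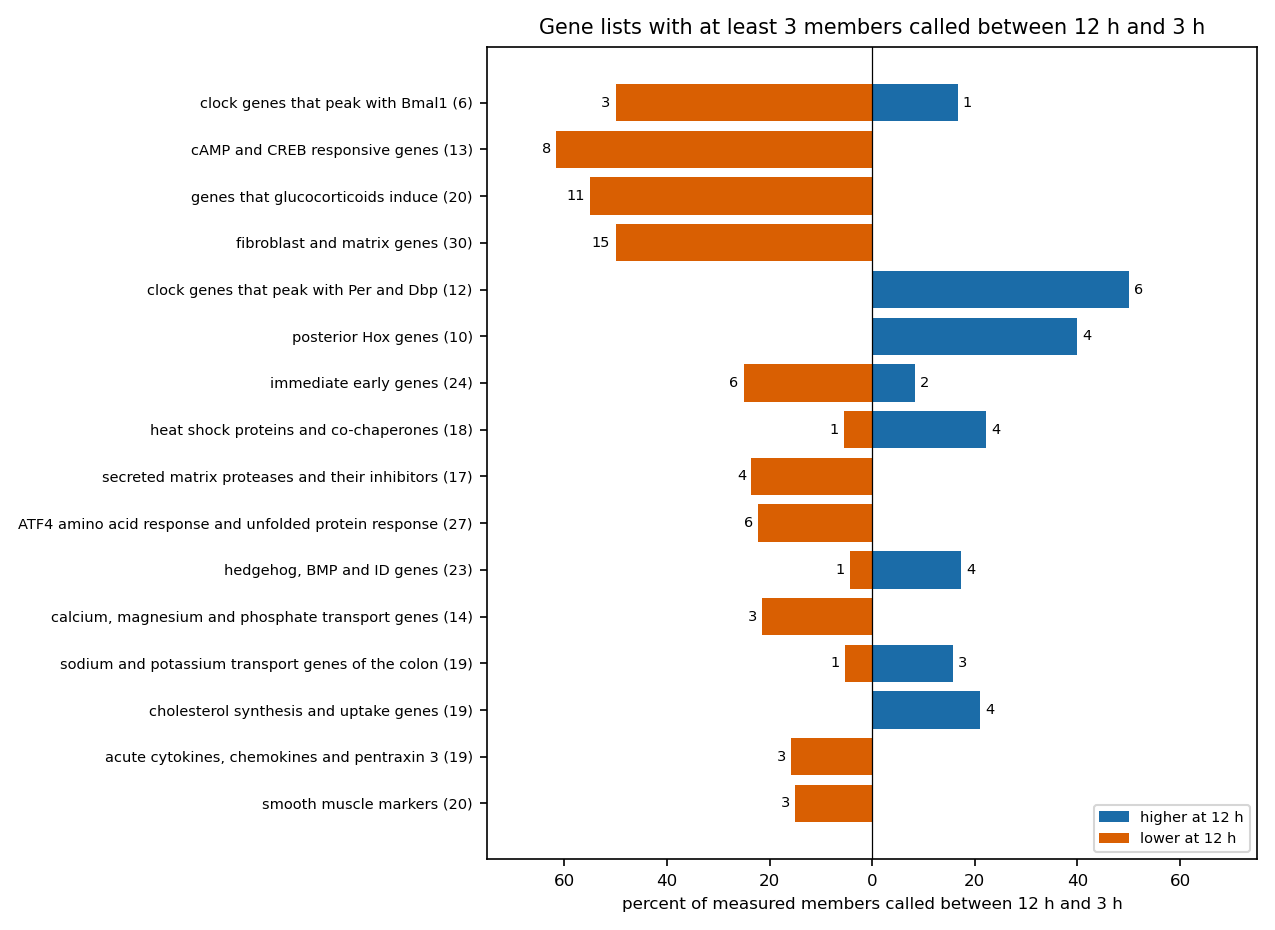
Percent of the measured members of a gene list (number in brackets) that were higher (blue, to the right) or lower (orange, to the left) at 12 h than at 3 h by limma, for the lists with at least 3 members called, with the number called beside each bar. Over all genes 1.99% were higher and 2.08% lower; cAMP-responsive, glucocorticoid-induced and matrix genes stand to the left and the Per and Dbp clock genes and posterior Hox genes to the right.

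Slc51a, Slc10a2, S100g and Sgk1 were among the 47 upward changes that persisted. Of the lists, 2 of 12 bile acid genes, 1 of 14 calcium, magnesium and phosphate transport genes and 1 of 19 sodium and potassium transport genes were in the persisted class. Over all 18193 genes 81 were in it, up or down. Slc51a, which helps export bile acids across the basolateral membrane, had signals of 15.9, 25.7 and 83.6 in control, 329.0, 343.5, 347.5 and 268.6 at 3 h, and 160.8, 305.2, 396.3 and 298.5 at 12 h. The 2 times overlapped and both lay above control (log2 difference between 12 h and 3 h -0.20 ± 0.32 SE; limma adjusted p = 0.826). The apical bile acid transporter gene Slc10a2 had 1.2, 7.6 and 12.2 in control, 58.9, 95, 67.8 and 49.7 at 3 h and 53.4, 145.1, 96.2 and 88.6 at 12 h (0.38 ± 0.25 SE; limma adjusted p = 0.477). Sgk1, a kinase that raises sodium uptake, had 488.7, 788.5 and 611.7 in control, 2420.8, 2357.8, 2083.6 and 2538.2 at 3 h and 1201.5, 2208.4, 2101.2 and 1653.8 at 12 h (-0.42 ± 0.19 SE; limma adjusted p = 0.269). Neurotensin (Nts), S100g, which buffers calcium in the epithelium, Prap1, the carboxylesterase Ces1g and the proximal gut factor Osr2 also persisted, with differences between the times from -0.42 to 0.26. A dimmer probe set of Osr2 differed by 0.05.

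Irs1, Grb7 and Aplnr were among the 34 downward changes that persisted. Irs1, the adaptor of the insulin and IGF1 receptors, had signals of 188.8, 176.8 and 198.4 in control, 81.0, 82.8, 79.2 and 80.3 at 3 h, and 83.8, 100.4, 122.9 and 110.2 at 12 h. Its 12 h arrays lay above the 3 h arrays, but the difference did not pass the test (0.30 ± 0.10 SE; limma adjusted p = 0.139). Grb7, an adaptor of receptor tyrosine kinases, had 415.3 to 503.1 in control, 175.0, 241.2, 259.1 and 195.5 at 3 h and 233.9, 256.0, 266.7 and 223.7 at 12 h (0.17 ± 0.13 SE; limma adjusted p = 0.544). The apelin receptor gene Aplnr had 56.5 to 75.2 in control, 16.4 to 26.7 at 3 h and 21.1 to 31.0 at 12 h (0.20 ± 0.13 SE; limma adjusted p = 0.452). Ccn2, the spindle gene Aspm, the ubiquitin ligase gene Fbxo32, Spon2 and Etfbkmt were also lower at both times, with differences between them from -0.46 to 0.36.

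A further 5 genes were called in all 3 comparisons without ending between control and their 3 h level, and are named after their values were seen. Ypel2 and Bnip5 fell at 3 h and again by 12 h (-0.97 and -0.83 between the times), and Tesk2 rose at both steps (0.48). Gpcpd1 went from above control to below it (-1.05), and Cys1, a cilium protein gene, went from 16.7 to 21.9 at 3 h to 65.5 to 93.9 at 12 h around a control of 36.3 to 41.5 (1.34 ± 0.11 SE; limma adjusted p = 2.97e-05).

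No gene of the lists for DNA replication, mitosis and imatinib targets was called between 12 h and 3 h. Over all genes 4.07% were called, so lists of this size can hold no call without differing from other genes. Over all 18193 genes 3231 had an unadjusted limma p under 0.05, the background for the unadjusted counts below. None of 30 G2 and mitosis genes was called by limma (4 had an unadjusted p under 0.05), with medians of -0.21 between the times and -0.74 at 12 h against control. Against control 3 of the 30 were lower at 3 h and 8 at 12 h, against 1.1% and 0.846% of all genes. The persisted class held 3 of the 30, against 81 of all 18193 genes. Mki67 differed by -0.47 ± 0.18 (SE; 95% interval -0.87 to -0.07; limma adjusted p = 0.198). None of 24 DNA replication genes was called (3 unadjusted). None of 8 kinases that imatinib inhibits was called (3 unadjusted; median 0.08), and none of 17 Eph receptors and ephrins (3 unadjusted; median -0.03). Abl1 differed by 0.31 (95% interval 0.01 to 0.62), Abl2 by -0.33 (-0.58 to -0.09), Kit by -0.23 (-0.55 to 0.09), Pdgfra by 0.10 (-0.24 to 0.44) and Pdgfrb by 0.24 (-0.24 to 0.72). Ephb4 differed by 0.36 (0.15 to 0.58; limma adjusted p = 0.063). Lgr5 differed by 0.42 (0.07 to 0.77) and Ccnd1 by 0.55 (0.12 to 0.97), and neither passed the test. In all, 19 of 49 lists had no member called and 10 had 1. The 18 pancreatic acinar markers had a median difference of 3.57 with none called (2 unadjusted), and their level ranged from 7.11 to 12.18 over the 12 h arrays.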

How the data were processed

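The values are the deposited intensity of each probe set of an Affymetrix mouse expression array, on a linear scale, from the series' value table. The authors' software and normalization were not given in the sources used here. In these data the trimmed mean of each deposited array was 100, and array medians were 16.8 to 23.9, and 32.9% of genes had a mean log2 level below that of a signal equal to the offset. Of 45101 probe sets 34945 had 1 gene symbol, 932 several and 9160 none, and 1 probe set per gene (the highest mean over 11 arrays) left 18193 genes, of which 9010 had more than 1. Each value was raised by 16 and log2 transformed. One model with the 3 groups was fitted to all arrays with limma 3.58.1 (R 4.3.3; lmFit, contrasts.fit and eBayes; 8 residual and 3.99 prior degrees of freedom), two-sided, with Benjamini-Hochberg adjustment over all genes and a call at an adjusted p under 0.05. The script was tested on simulated data. Figures used Python 3.11.15 and matplotlib 3.10.9. The number of arrays limits the precision. Alternatives changed the offset, filter, probe set, normalization, variance prior, threshold, covariates and arrays.

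The comparison and the gene lists were chosen with earlier results of these data known. Named genes were the 15 largest rises and 15 largest falls without overlap between the times, up to 6 members of a list with the smallest p, the 8 genes of each class and direction with the largest difference, and a set of 12 imatinib targets, Eph receptors and growth genes. Predicted and receptor or immunoglobulin family genes were left out. Lists are also given with names of called members. Per1, Fkbp5, Ugt8a, Adamtsl2 and Fst were named outside these rules with their values seen, as were the genes said to be so chosen.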

Additional observations from a re-analysis of the deposited data

Results flagged for a closer look

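Among 145 genes and 49 lists, 388 groups of 4 arrays were checked for 1 array whose gap to the nearest of the other 3, divided by the range of the group, passed Dixon's 95% critical value. It did in 18 groups. For independent groups chance alone gives about 1 in 20, and these genes and lists share arrays, so the rate here was not measured. At 3 h replicate 2 was highest for Adamts9 (263.6), Crem (232.9) and Fosl2 (1286.8), and replicate 1 was highest for Mthfd2 (319.1). Replicate 1 was also lowest for Mab21l2 (48.8), and replicate 4 was lowest for Hoxd10 (24.9) and highest for the male accessory gland markers (mean log2 level 6.67). At 12 h replicate 4 was highest for Cry2 (165.2), Sprr1a (164.7) and Cys1 (93.9) and lowest for Aars (239.4), Lgr5 (35.8) and the crypt stem cell and Wnt target list (6.45). Replicate 3 at 12 h was highest for Nr3c1 (688.0) and S100g (643.6), and replicate 2 for Kit (181.8). Replicate 1 at 12 h was lowest for the Eph receptor and ephrin list (6.23) and highest for the interferon-stimulated list (8.29).

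The control transcripts dap, lys, phe and thr, which do not measure mouse genes, were each averaged over part of their probe sets. These means were higher at 12 h than at 3 h by 0.52, 0.61, 0.54 and 0.56 on the log2 scale, without the offset. For each mean the 12 h arrays lay above all 7 others. Single probe sets overlapped, and 1 for lys had 34.2 on 12 h replicate 4 and 35.1 on 3 h replicate 1. The part of these control transcripts in the results was not tested.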

How the results depend on the processing

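The 5 counts, in the order rose, fell, reverted, late and persisted, were 362, 379, 190, 97 and 81. At an adjusted p under 0.01 they were 98, 137, 72, 26 and 11, with a 2-fold minimum 21, 80, 51, 20 and 19, and with an offset of 1 they were 208, 227, 111, 36 and 23. With fat markers as a covariate they were 191, 224, 43, 35 and 11, with pancreatic markers 171, 181, 120, 49 and 48, and with posterior Hox genes 1, 0, 0, 1 and 0. Without the 5 arrays high in pancreatic markers, chosen after seeing the data, they were 4, 12, 10, 5 and 2. With only genes above a level of 32, 561 rose, 308 reverted, 194 were late and 140 persisted. The probe set with the highest variance gave 222 rises, 55 late and 47 persisted. An offset of 64 gave 179 late, and a trended robust variance prior 173 late and 134 persisted. Leaving out 1 array at a time gave 176 to 351 rises, 215 to 407 falls, 104 to 176 reverted, 36 to 168 late and 15 to 102 persisted. With a replicate block 197 rose and 59 were late, and 437 of the 741 genes were also called. Deviations from the group means correlated at -0.21 to 0.31 over 10 same-numbered pairs of arrays and at -0.4 to 0.31 over the other pairs. These ranges are alike and do not tell whether replicate numbers pair the samples. Of the named genes only Hoxd13 (-0.25), Scd1 (0.06) and Scd2 (-0.19) reversed, each with posterior Hox genes as a covariate. Hoxd13 is itself a member of that list, so this fit is no check of its change. Of 108 genes named by the rule and called, 29 lost the call when 1 array was left out. The causes were not tested.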
